A study of Saccharomyces cerevisiae with 6 samples.

Results

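In budding yeast, 1312 clusters of polyadenylation sites lay shortly upstream of the main site of their gene, at ends that give a shorter 3′ untranslated region (UTR) than the main one. They belonged to 1086 of the 4014 genes and were 1312 of the 13565 clusters in the deposited table. The members were chosen from read counts. The main cluster of a gene was the one with the most reads summed over all 6 libraries, and a member had 20 or more summed reads and ended 1 to 299 nt before it. Which cluster has more reads, and that members hold fewer reads than the main site, are therefore set by the choice and are given below as description.

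The study compared 3 libraries of Saccharomyces cerevisiae with JHD2 deleted and 3 wild-type libraries, all from cultures in mid-log growth. JHD2 is the yeast member of the KDM5 enzymes, which take methyl groups off histone H3, and the series title ties these enzymes to the upkeep of 3′ UTR length. Polyadenylated RNA was sequenced by 3′READS, which captures fragments with a poly(A) tail so that each read marks one cleaved and polyadenylated end. Strain background, age of the cultures and whether replicates were separate cultures are not given in the labels used here, so p-values speak only of variation among these 6 libraries, some of which may be technical. JHD2 itself had 0 clusters in the table in either strain, so its reads offer no check of the genotype.

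When RNA polymerase passes the end of a yeast gene, a large complex of cleavage and polyadenylation factors binds UA-rich and A-rich stretches of the nascent RNA, cuts the RNA downstream of them and adds the poly(A) tail. The UA-rich stretch is known as the efficiency element and is bound by Hrp1, and the A-rich stretch nearer the cut is known as the positioning element and is bound by the cleavage factor subunit Rna15. Most yeast genes are cut at more than one place, and the place chosen sets how much 3′ UTR, with any binding sites for regulatory proteins, stays in the mRNA.

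The libraries held 233749 to 480847 reads in the table, of which 10.4% to 11.4% lay at the upstream clusters. The lowest total was that of wild-type replicate 2, and a member had a median of 6 reads there against 7 to 12 in the other libraries. Among the 782 members of genes that averaged at least 50 reads a library, that library most often held the highest or lowest share. It took 25.8% of these outermost places, against 13.7% to 16.3% for each of the other 5 libraries. Fewer reads alone widen the counting error of a share, and these places were not corrected for depth. No pair of libraries of a group agreed within sampling noise (chi-square per degree of freedom 1.28 to 2.87). Values with an error are mean ± SD over n = 3 libraries per group unless named otherwise.

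The printed sequences show the efficiency element at upstream and main ends, because its place differed with the distance between them. Each is 30 bases of the transcript strand from the RefSeq copy of the yeast genome (R64, the assembly of sacCer3), 5′ to 3′, with matches to the element in capitals. The element was searched as TATATA, or its variant TATGTA, or its variant TACATA, or its variant TACGTA, within the 60 nt before an end. These 4 words as a set read the same on both strands, so 1 search covers both, and neighbouring matches may overlap. Windows hold the match nearest the end, or the last 30 bases where there was no match. Shown are the genes whose upstream cluster changed in level, and HAC1 and RPL19B from the 6 members with the most reads. SPI1 (changed in level) and FBA1, ENO2, ECM33 and MF(ALPHA)1 (from those 6) had no match at either end.
GPH1 upstream end, chrXVI:864079-864108, plus strand: tacttcttctctTATATAaaacgcctttaa
GPH1 main end, chrXVI:864135-864164, plus strand: tcttttaaatggTATATAtgatgttacagg
TPO2 upstream end, chrVII:763699-763728, minus strand: tctagtcattcaTATATAcgatacaaaaat
TPO2 main end, no match, chrVII:763616-763645, minus strand: aacttctcaaaaaaacgtcggacatttcta
YRO2 upstream end, no match, chrII:344456-344485, plus strand: agcactacttataatcttaattaaatctaa
YRO2 main end, chrII:344536-344565, plus strand: TACATACATACATACATAtaaatatacgcg
PMA1 upstream end, no match, chrVII:479436-479465, minus strand: actttatttagtctaattcttaatttttaa
PMA1 main end, chrVII:479416-479445, minus strand: taatttttaaTATATATAatgcacacacac
SOD2 upstream end, chrVIII:122757-122786, minus strand: ttactattaaaaTACATAtacatgcatcgt
SOD2 main end, no match, chrVIII:122663-122692, minus strand: ttctttttccttgttctctctcgcttccta
URA3 upstream end, no match, chrV:117016-117045, plus strand: agagcttcaatttaattatatcagttatta
URA3 main end, no match, chrV:117078-117107, plus strand: tgacgaaaaaaaaaaaattggaaagaaaaa
HAC1 upstream end, chrVI:76496-76525, plus strand: TATATAttttttTATATAaaactataaaga
HAC1 main end, chrVI:76504-76533, plus strand: ttttTATATAaaactataaagaattcttga
RPL19B upstream end, chrII:169412-169441, plus strand: ttctcattgttcTATATAtgttttattttc
RPL19B main end, no match, chrII:169462-169491, plus strand: ataatagtttcaaaggagcagagaaagaaa

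The pairs differed in whether the ends share an element. In HAC1 the same TATATA stood 29 nt before the upstream end and 55 nt before the main end. GPH1 had a separate TATATA for each end, 39 nt before the upstream and 21 nt before the main one. In PMA1 and YRO2 the matches lay between the ends, in PMA1 as 2 overlapping ones just past the upstream end. TPO2, SOD2 and RPL19B had a match before the upstream end and none within 60 nt of the main end.

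Upstream ends clustered close to the main end. The distance ran from 25 to 299 nt with a median of 57 nt, and 546 members (41.6%) lay within 25 to 49 nt, 440 (33.5%) within 50 to 99 nt, 183 (13.9%) within 100 to 149 nt, 69 (5.26%) within 150 to 199 nt and 74 (5.64%) within 200 to 299 nt. Because the authors joined ends within 24 bp, nearer alternatives cannot appear as members. At the shortest distance, 25 nt, stood 18 members, among them the ribosomal protein genes RPL24A (1868 reads, main 4696) and RPL16A (391, main 1835). At the far limit the member of AMN1 (21 reads, 299 nt) was the last inside, and a cluster of SIP1 (29 reads, 303 nt) the first outside. At the read minimum, 35 members had exactly 20 reads and 46 clusters at the same distances had 19.

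**Figure D1:**
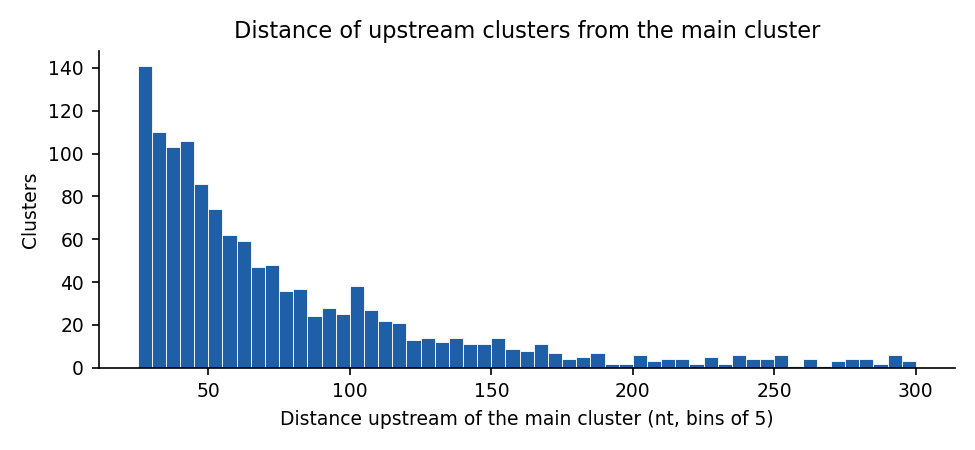
The horizontal axis gives the distance of each of the 1312 upstream clusters before the main cluster of its gene, in bins of 5 nt, and the vertical axis the number of clusters. Most lie within 99 nt, with none nearer than 25 nt.

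The shorter ends removed a sizeable part of the UTR. For 1266 members both ends lay past the stop codon, the upstream end at a median of 106 nt (quartiles 71 and 151) and the main end of the same genes at 172 nt (132 and 243). The main ends of all 3824 genes with one past the stop codon had a median of 129 nt, so genes with an upstream alternative had a longer main UTR, as the choice of an end before the main one favours. The UTR of the upstream end was a median of 63.9% as long as that of the main end, and in 324 members it was under 50%. In 136 members it was shorter than 50 nt, while 0 of the main ends of these genes lay that near the stop codon.

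Within the coding span ended 46 members, among them 1 of GBP2 at the last base of its coding region. For 41 of them the main end lay past the stop codon. The most-read of these were in GBP2, which encodes a poly(A) RNA-binding protein of mRNA export (222 reads, 32 nt before the end of the coding region, against 639 at the main end), TPS1, the trehalose-phosphate synthase (158 reads, 51 nt before, against 1326), and KIP3, a kinesin (102 reads, 243 nt before, against 478). In the amino acid permease gene BAP2 both ends lay in the coding span, the upstream one with 286 and the main one with 740 reads. These genes were picked after their values were seen. A further 5 members lay inside another annotated gene on the same strand, among them those of SOD2 (in YHR007C-A) and of the phosphatase regulator gene RTS1 (2 members in YOR015W), and their reads could come from either gene. On the opposite strand, 51 members faced an annotated gene, against 344 of the 1636 clusters within the same distance downstream of the main end.

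Of these genes 885 had 1 member, 177 had 2, 23 had 3 and 1 had 4. That gene was RPL9B, for a protein of the large ribosomal subunit (YNL067W, chromosome XIV, 499681 to 500256, plus strand), with ends 158, 117, 75 and 35 nt before its main end at 500561. They held 13.9% ± 2.59, 23.3% ± 4.6, 17.7% ± 1.92 and 6.56% ± 0.919 of the gene's reads (SD, n = 6 libraries). The use of these ends thus did not follow their order along the gene, the second from the stop codon being the most read of the 4. ATP1, a subunit of the mitochondrial ATP synthase, had members at 130, 71 and 30 nt with 6.53% ± 1.98, 26.2% ± 1.81 and 33.1% ± 4.31 (SD, n = 6). GIS2, a zinc-finger protein that binds mRNA and ribosomes, had members at 126, 96 and 32 nt with 17.7% ± 1.59, 6.72% ± 0.825 and 36.7% ± 4.02 (SD, n = 6). Of the 1086 genes with a member, 302 also had a retained cluster within 299 nt after the main end, as did 1318 of all 4014 genes.

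Base composition was that of yeast polyadenylation sites at upstream and main ends. Adenine peaked at 43.1% of upstream ends 18 nt before the last aligned base, and at 45.1% of main ends 21 nt before it, where the positioning element is known to lie. Thymine made up 41.3% of the 10 bases after upstream ends and 40.1% after main ends, and adenine 28.1% and 24.3%. The last aligned base was adenine in 92.1% of upstream and 94.8% of main ends. A tail base cannot be told from a genomic A, so the cut itself lies somewhere in the run of A that ends there. That run was 4 nt or longer in 13.2% of upstream ends, 21.4% of main ends and 18.3% of downstream ends.

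The efficiency element was found in the 60 nt before the end for 611 of 1312 members (46.6%), 458 of 1086 main ends of the same genes (42.2%) and 445 of the 1636 downstream clusters (27.2%). For the main ends of all 4013 genes with a reference annotation it was 52.8%, above the share of members. Over the 13561 clusters whose gene was in the reference annotation it was 35.3%, in the last 60 nt of the coding regions of these genes 7.09%, and in all 60-nt windows of the nuclear genome on both strands 7.37%. TATATA alone was found for 28.7% of members and 23.1% of their main ends, against 3.4% of genomic windows. AATAAA was found for 14.3% and 15.4%, against 5.16% of genomic windows, and its reverse complement TTTATT for 13.9% and 12.1%. AAAAAA was found for 13.8% and 18.7%, against 6.36%, and TTTTTT for 16.5% and 15.5%. At upstream ends AATAAA was thus as frequent as its reverse complement and AAAAAA less frequent, and at main ends both were more frequent than theirs. Members with at least 50% of the reads of their main end had an efficiency element in 50.9% of 379 cases, and those under 20% in 44.8% of 493. The windows of neighbouring ends overlap when the ends are less than 60 nt apart. Among the 630 members at 60 nt or more, with separate windows, 34.3% had an element, against 48.3% of their 532 main ends, the opposite order to that over all members. No test was made of these shares.

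**Figure D2:**
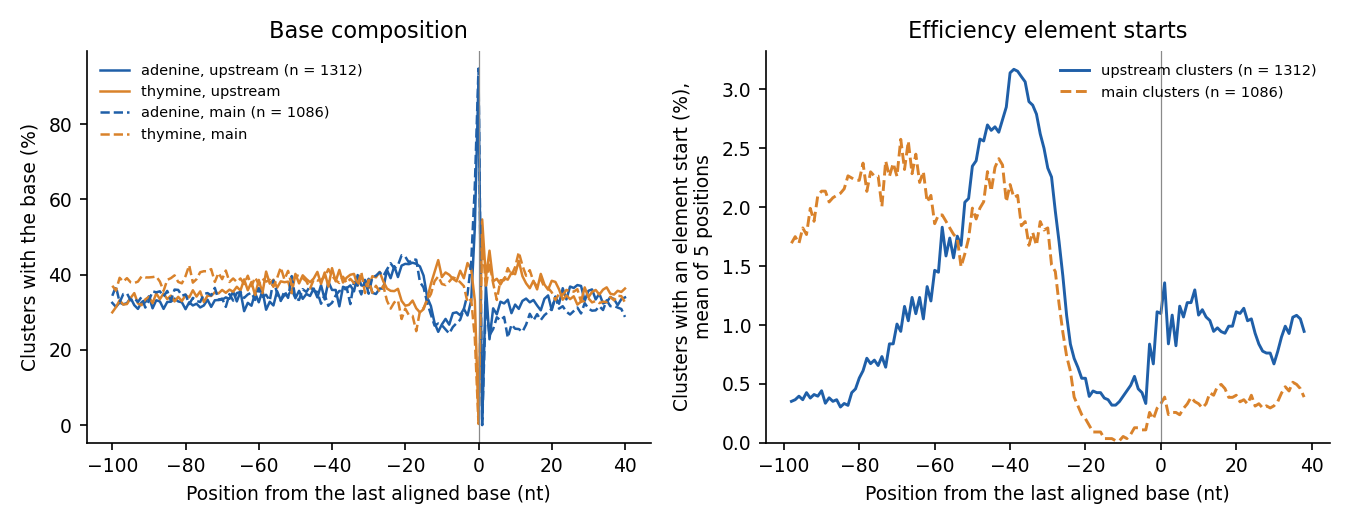
Both panels give the position from the last aligned base, in nt, on the horizontal axis, for 1312 upstream ends (solid) and 1086 main ends (dashed). On the left, the share of ends with adenine or thymine at each position shows the adenine peak 18 nt before upstream and 21 nt before main ends, and the adenine at the end itself. On the right, the share of ends at which an efficiency element starts, as a mean of 5 positions, is highest about 38 nt before upstream ends, while main ends have a broader distribution that is high back to 71 nt and beyond.

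Where the element lay changed with the distance between the ends. For the 682 members 25 to 59 nt from the main end, 57.9% had an element within 60 nt before the upstream end, 35.2% within 60 nt before the main end and 20.7% between the ends. At 60 to 99 nt the shares were 42.8%, 44.7% and 53.3%, at 100 to 199 nt 28.2%, 52.0% and 75.8%, and at 200 to 299 nt 20.3%, 51.4% and 70.3%. Close pairs thus mostly had the element before the upstream end, and distant pairs mostly between the ends. Of all members, 46 ended in the coding span and 136 had a UTR under 50 nt, so their windows reach into coding sequence. In the last 60 nt of the coding regions of these genes 7.09% had an element. The part of coding sequence in the fall of the upstream share with distance was not tested. A longer stretch between the ends holds more matches by its length alone, while the windows of the other shares have a fixed length. The shares are not separate measures. At 60 nt or more the window before the main end lies wholly between the ends, so the share between them cannot be the smaller one. Below 60 nt the stretch between the ends lies wholly within that window, which also overlaps the one before the upstream end.

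**Figure D3:**
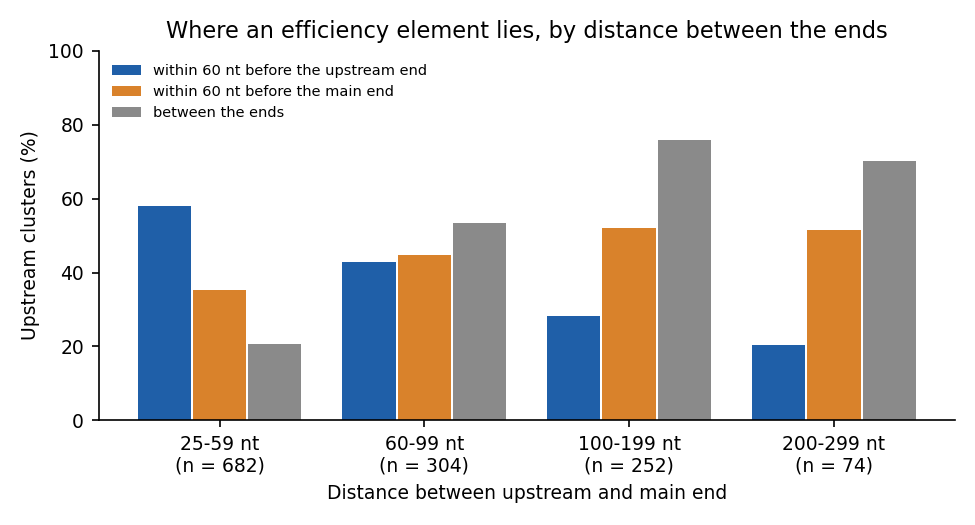
Bars give the percentage of upstream clusters with an efficiency element in each of 3 stretches, for 4 ranges of the distance between upstream and main end given on the horizontal axis with the number of clusters. The share before the upstream end falls from 57.9% to 20.3% from the nearest to the farthest range, and that before the main end rises from 35.2% to 51.4%.

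Comparing the strains, no upstream cluster was called with a changed part in the reads of its gene. The test, edgeR's quasi-likelihood test of each cluster against its whole gene, took all 5952 retained clusters of genes with 2 or more of them, and called 0 of 1312 members higher and 0 lower in the deletion, against 1 of 5952 (0.0168%) over the table. At an unadjusted p under 0.05 stood 33 members with a larger and 16 with a smaller part in the deletion, 3.73% of members against 2.15% of all clusters (1.16% larger and 0.991% smaller). The 5952 include main clusters, and of the main clusters of these genes only 4 of 1086 (0.368%) had such a p. When each cluster was set against the main cluster of its gene alone, 1 member was called, that of URA3, against 0.056% of 3572 clusters. At an unadjusted p under 0.05 this test had 51 members with a larger and 33 with a smaller part. These were 6.40% of members against 5.63% of the 3572 clusters (98 larger and 103 smaller). The limma-voom test also called 1, again URA3, against 0.0672% of 5952. Simulated counts of this comparison had 100 single clusters changed at each size, main clusters among them. The first of these tests recovered 16.0% of the 2-fold and 54.0% of the 4-fold changes, so changes of these sizes can be missed. The test against the main cluster recovered 55.8% of 2-fold (n = 43) and 94.0% of 4-fold changes (n = 50). It made 9 false calls, counted only in genes without a changed cluster. It tests no main clusters, so the recoveries of the tests are not over like clusters. All changed clusters were drawn from those with more summed reads than the median member had. Recovery at members with fewer reads was not measured.

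Small shifts to the upstream ends were more frequent than shifts away from them. The usage log2 fold change, deletion over wild type, was above 0 in 765 of 1312 members (58.3%), with a median of 0.05 and quartiles of -0.12 and 0.22, while over all 5952 clusters 50.3% lay above 0 with a median of 0.00. Among clusters within 299 nt downstream of the main end 44.6% lay above 0, with a median of -0.03. The share of gene reads did not overlap between the strains in 155 members (11.8%, against 10.2% of all clusters), 101 of them higher in the deletion (7.70% against 4.92%) and 54 lower (4.12% against 5.24%). For downstream clusters the counts were 47 higher (2.87%) and 90 lower (5.50%). Upstream and downstream clusters of a gene share the same total of reads, so these values are not independent of each other.

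By library, the mean share of gene reads at upstream clusters, over 971 genes that averaged at least 20 reads a library, was 23.1%, 22.4% and 22.4% in deletion replicates 1, 2 and 3 and 22.0%, 21.3% and 22.5% in wild-type replicates 1, 2 and 3. The groups overlapped, wild-type replicate 3 lying above deletion replicates 2 and 3. The means were 22.7% ± 0.397 and 21.9% ± 0.623, a difference of 0.743 percentage points, and 0.414 points without wild-type replicate 2, which had the lowest value. For downstream clusters the mean shares over 1159 genes were 21.3% ± 0.303 and 22.1% ± 0.672, a difference of -0.782 points, or -0.401 without wild-type replicate 2. The mean log2 ratio of reads at the upstream to the main cluster was -2.04 ± 0.0439 and -2.11 ± 0.0758 over 1191 members with a pseudocount of 0.5 reads. Its difference of 0.0688 changed sign, to -0.00837, with a pseudocount of 2, and the deletion libraries held 59.4% of all reads. The part of library depth and of wild-type replicate 2 in these shifts was not tested further.

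**Figure D4:**
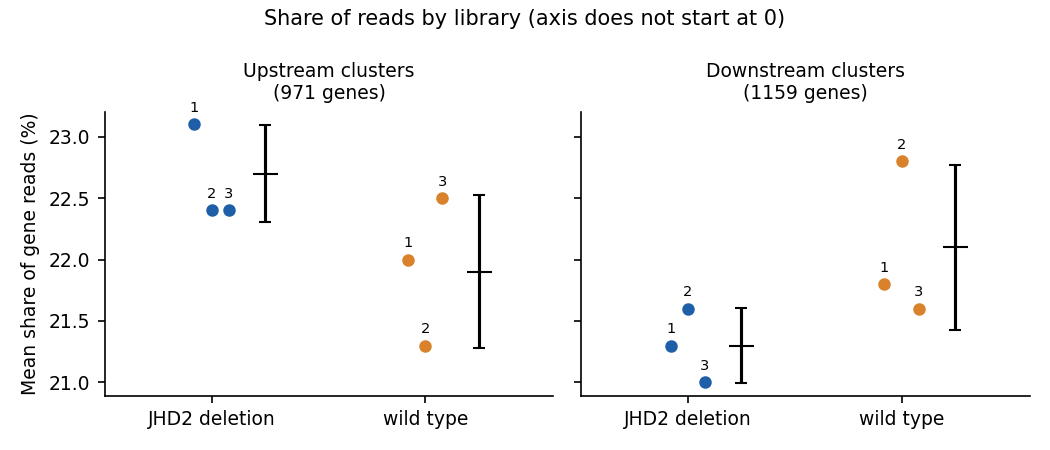
Points give the mean share of gene reads at upstream clusters (left) and downstream clusters (right) in each library, in percent on an axis that does not start at 0, labelled by replicate number, with mean and SD of each group beside them. The deletion libraries lie at 22.4% to 23.1% and the wild-type ones at 21.3% to 22.5% for upstream clusters, and at 21.0% to 21.6% and 21.6% to 22.8% for downstream clusters.

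URA3, which encodes orotidine phosphate decarboxylase of pyrimidine synthesis, had the 1 upstream cluster of 1312 with 0 reads in all deletion libraries. The gene (YEL021W) lies on chromosome V from 116167 to 116970 on the plus strand, its upstream end at 117045, 75 nt past the stop codon, and its main end 62 nt farther, at 117107. Upstream read counts were 0, 0 and 0 for deletion replicates 1, 2 and 3, against 10, 3 and 13 for the wild-type replicates in the same order. At the main cluster the counts were 5, 6 and 12 for the deletion, against 9, 2 and 2. Groups did not overlap at the upstream end and overlapped at the main end. Per read of the library the upstream end was at least 12.6-fold lower in the deletion, taking 3 reads over the group as the most that a count of 0 allows, and with 23 URA3 reads in the deletion a share of up to 13.0% is allowed for counting error. Its level fell (adjusted p = 0.00038, edgeR), its part in the gene's reads did not pass against the whole gene (adjusted p = 0.078) and passed against the main cluster alone (adjusted p = 0.0066, edgeR). With 1 library left out, the adjusted p against the whole gene ran from 0.021, without wild-type replicate 2, to 0.81, without deletion replicate 3 (edgeR). The 23 and 42 reads of the gene limit the precision of these values. All 26 upstream reads came from wild type, so the cluster met the read minimum through wild-type reads alone. The upstream end had more reads than the main end in each wild-type replicate, and the main end leads only through the deletion libraries. The choice of URA3 as a member thus rests on the contrast that was tested, and its p-values are not independent of that choice.

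The level of single upstream clusters changed in 7 of 1312 members (0.534%, against 36 of 7252 retained clusters, 0.496%), with 5 higher (0.414% over the table) and 2 lower (0.0827%) in the deletion. In 5 of the 7 the main cluster was called in the same direction, so both ends of the gene moved together, and in the other ones, URA3 and PMA1, it was not called. Levels are counts per 1000000 reads at retained clusters after TMM scaling (CPM). In bulk RNA, fewer cells using an end and less RNA per cell cannot be told apart.

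GPH1, the glycogen phosphorylase, rose at its upstream end from 33.2, 4.38 and 44.2 CPM in wild type to 179, 174 and 219 in the deletion (log2 fold change 2.72, SE 0.32, adjusted p = 6.4e-07, edgeR). Its main end, 38 nt farther, rose by a log2 fold change of 2.36 (SE 0.24). The upstream share was 35.2% ± 1.02 for the deletion, against 24.0%, 10.0% and 42.9% for the wild-type libraries, which spread to both sides of it. The polyamine exporter gene TPO2 rose at its upstream end from 75.8 ± 33.1 to 308 ± 15.4 CPM (log2 fold change 2.07, SE 0.23, adjusted p = 4.7e-07, edgeR) and at its main end by 2.50 (SE 0.24), with upstream shares of 38.0% ± 3.79 for the deletion against 42.2% ± 10.0. In YRO2, a plasma membrane protein, the upstream end rose from 10.5 ± 2.93 to 65.5 ± 9.27 CPM (2.60, SE 0.40) and the main end by 2.07 (SE 0.27). In SPI1, a cell wall protein, they rose by 1.78 (SE 0.35) and 1.85 (SE 0.21), with upstream shares of 17.9% ± 1.82 and 17.6% ± 5.87. The call of the SPI1 upstream end was lost without wild-type replicate 1 (adjusted p = 0.083, edgeR) or 3 (0.059) and with DESeq2 (0.083). Deletion and wild-type levels did not overlap at any of these 4 upstream ends.

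SOD2, the mitochondrial superoxide dismutase, fell at its upstream end from 205, 153 and 221 CPM in wild type to 48.4, 84.4 and 76.6 in the deletion (log2 fold change -1.48, SE 0.24, adjusted p = 0.00025, edgeR). Its main end, 69 nt farther, fell by 1.55 on the log2 scale (SE 0.21), with upstream shares of 33.7% ± 6.42 for the deletion against 38.5% ± 1.79. The groups were apart in level and overlapped in share.

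PMA1, the proton pump of the plasma membrane, was the one called gene whose upstream end rose while its main end did not pass. The upstream end (YGL008C, chromosome VII, at 479436 on the minus strand, 474 nt past the stop codon) rose from 213, 136 and 258 CPM in wild type to 375, 386 and 353 in the deletion (log2 fold change 0.86, SE 0.20, adjusted p = 0.027, edgeR). The main end, 42 nt farther, stood at 1352 ± 111 CPM in wild type and 1616 ± 205 in the deletion (0.26, SE 0.15, adjusted p = 0.72). Upstream shares of 15.5%, 15.0% and 16.4% for the deletion stood apart from the wild-type ones of 12%, 7.87% and 12.6%, and the usage test did not pass (log2 fold change 0.34, SE 0.14, adjusted p = 1, edgeR). Leaving out deletion replicate 1, 2 or 3, or wild-type replicate 1, ended the level call (adjusted p from 0.089 to 0.17, edgeR).

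**Figure D5:**
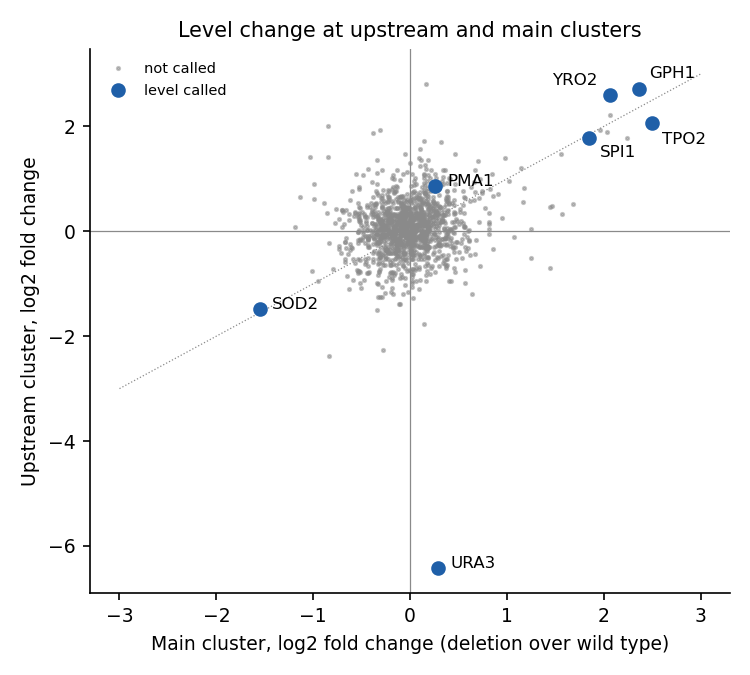
Each point is 1 of the 1312 upstream clusters, with the log2 fold change (deletion over wild type) of the main cluster of its gene on the horizontal axis and its own on the vertical axis, and a dotted line where both are equal. The 7 called clusters are named. GPH1, TPO2, YRO2, SPI1 and SOD2 lie near the line, PMA1 above it and URA3 far below, where the fitted value is set by 0 reads in the deletion and is no bound.

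Of the members at an unadjusted p under 0.05 in the usage test, 22 with a larger and 11 with a smaller part in the deletion had shares without overlap and a gene with 20 or more reads per library. The like count over all clusters tested was not made, so these numbers are no result about upstream ends. None of the 33 passed adjustment by edgeR (adjusted p = 1), and they were chosen for a difference between the same libraries. Among the larger were NUP53, a nuclear pore protein, whose upstream end, 20 nt into the UTR, had counts of 10, 8 and 5 for the deletion against 0, 1 and 1 for wild type (share 10.1% ± 3.10 against 1.82% ± 1.65). ARP8, an actin-related subunit of the INO80 chromatin remodeller, had 10.4% ± 0.578 against 3.32% ± 1.97 at an end 173 nt before the main one. CMK1, a calmodulin-dependent kinase, had 17.1% ± 2.61 against 6.44% ± 0.645 at an end 58 nt inside its coding region. MSC2, a zinc transporter of the endoplasmic reticulum, had 15.1% ± 6.36 against 2.99% ± 2.70, and TEA1, a Ty1 enhancer activator, 23.7% ± 5.36 against 5.14% ± 4.81. The remaining ones of the 8 with the highest fold change were UTP11 of ribosome assembly (16.2% against 6.13%), ATG27 of autophagy (5.02% against 1.61%) and the J-protein gene JJJ2 (23.6% against 8.86%). The read minimum of a member is summed over both strains, and these 8 met it mostly through deletion reads. Their larger share in the deletion is thus not independent of their choice as members.

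Among the smaller was SBE22, a gene of bud growth, whose upstream end, 45 nt into the UTR, had counts of 7, 8 and 12 for the deletion against 9, 11 and 10 for wild type. Its main end, 229 nt farther, held 37, 30 and 41 against 8, 9 and 10 reads and rose (log2 fold change 1.44, SE 0.30, adjusted p = 0.0089, edgeR). The smaller upstream share of SBE22 (11.3% ± 2.41 against 24.5% ± 6.76) thus went with more reads at the main end, and set against that end alone it had an adjusted p = 0.061 (edgeR). In each wild-type replicate the upstream end had at least as many reads as the main end, which leads through the deletion libraries. Which end of SBE22 is the main one thus rests on the contrast tested, and these p-values are not independent of that choice. A second SBE22 member, 102 nt before the main end (96 reads), had a level log2 fold change of 0.463 and was not called. UBP8, the deubiquitinase of the SAGA complex, had 13.2% ± 4.68 against 27.8% ± 5.89, and CSL4, a core subunit of the RNA exosome, 7.02% ± 4.17 against 21.8% ± 10.4. YGR054W, the eIF2A gene, had 2.66% ± 1.23 against 8.99% ± 3.2, and VRP1, an actin-associated protein, 8.90% ± 0.657 against 18.9% ± 3.52. RPL33B, LTO1 and AFG2, all genes of ribosome make-up or assembly, had 3.65% against 8.85%, 11.2% against 24.4% and 7.35% against 13.9%. In LTO1 the upstream end had 11, 3 and 7 reads in wild type, against 7, 5 and 6 at the main end. For the deletion these were 7, 2 and 4 against 4, 7 and 14, so the main end leads through the deletion libraries. YGR054W and CSL4 met the read minimum mostly through wild-type reads. The choice of LTO1, YGR054W and CSL4 as members is thus not independent of the contrast.

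The 12 most-read upstream ends had 3247 to 8626 reads. FBA1, the aldolase, had 8626 reads at an end 27 nt before its main one, HAC1, the transcription factor of the unfolded protein response, 6870 at 26 nt, RPL19B 6492 at 29 nt, ENO2, an enolase, 6080 at 35 nt and ECM33, a cell wall protein, 4319 at 129 nt. ENO2 used both ends nearly alike, with 49.4% ± 4.39 of reads at the upstream end for the deletion against 48.9% ± 3.04 for wild type. So did RTN1, a reticulon that shapes the endoplasmic reticulum, with 49.3% ± 2.78 and 48.6% ± 3.54. ECM33 had 40.4% ± 0.944 and 39.7% ± 2.33, RPL37A 41.1% ± 1.09 and 41.0% ± 2.87, and HAC1 36.8% ± 3.13 and 34.9% ± 2.58. These genes differed by less than the spread between libraries.

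Wild-type replicate 2 stood outside all other libraries in several of these genes. The upstream share of FBA1 was 44.3% there and 26.7% to 33.7% elsewhere. It was 33.8% against 22.3% to 24.4% in RPS20, 33.2% against 21.5% to 23.5% in the alpha factor gene MF(ALPHA)2 and 42.8% against 32.4% to 38.3% in RPL17A. In other genes it was the lowest. RPL19B had 35.5% against 46.9% to 49.4%, and RPS30B 23.0% against 29.3% to 37.0%. EFT2, one of the genes of elongation factor 2, had 29.9% against 47.9% to 54.8%. In RPS30B and EFT2 the deletion lay above wild type with and without that library, and neither passed the usage test (adjusted p = 1, edgeR). ERG13, of sterol synthesis, had 17.0% there against 42.7% to 47.3%, with 17 reads at the upstream and 83 at the main end. In MF(ALPHA)1 that library lay within the range of the others. The reading of FBA1 (29.9% ± 3.55 against 36.0% ± 7.24) and of ERG13 (44.2% ± 2.33 against 36.3% ± 16.8) therefore rests on 1 library.

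By function, 0 members of the 16 gene lists were called for usage by edgeR against the whole gene. URA3 of pyrimidine synthesis was called against its main cluster alone and by limma-voom. Those called for level were GPH1 and SPI1 of the general stress response and URA3. Among genes in the table, 26 of 40 for the TCA cycle and respiratory chain had a member (65.0%), 17 of 28 for cell wall proteins (60.7%), 7 of 12 for glycolysis and fermentation, 18 of 31 for translation factors, 11 of 20 for ergosterol synthesis and 35 of 79 for the cytosolic ribosome (44.3%), against 27.1% of all genes. The read minimum of a member favours genes with many reads. A member was found in 4 of 26 genes for cleavage, polyadenylation and termination (15.4%), 13 of 56 mitochondrial ribosomal protein genes (23.2%) and 0 of 14 genes of the COMPASS complex and JmjC proteins. These shares were not tested against that of all genes.

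Across the 35 members of the TCA cycle and respiratory chain list, the median usage log2 fold change was 0.06 and the median level log2 fold change 0.43, with 0 called in either test by edgeR. The 45 members in cytosolic ribosomal protein genes had medians of 0.02 and -0.05, the 28 of amino acid synthesis 0.07 and -0.13, the 21 of cell wall proteins 0.02 and 0.14, the 20 of translation factors 0.09 and 0.15 and the 16 of mitochondrial ribosomal proteins 0.15 and 0.06, against 0.05 and 0.08 over all members. The 8 of the general stress response had medians of 0.00 and 0.91. The 13 of ergosterol synthesis had 0.08 and 0.19, the 9 of chaperones 0.23 and 0.13, the 8 of glycolysis and fermentation -0.07 and 0.00 and the 5 of histones and their chaperones -0.16 and -0.21. The 4 of pyrimidine synthesis had -0.09 and 0.04, the 3 of cyclins 0.04 and 0.00, the 4 of cleavage and polyadenylation 0.29 and 0.42 and the 5 of genes known for alternative 3′ ends 0.22 and 0.26.

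In the most-read member of each remaining list, the shares of the strains overlapped. CLP1, a subunit of cleavage factor IA, had 26.5% ± 6.81 of its reads at an end 26 nt past the stop codon for the deletion against 31.0% ± 5.85 for wild type. RPB2, an RNA polymerase II subunit, had 11.5% ± 2.60 and 9.37% ± 0.353 at an end 290 nt before its main one, with overlap. GDH1, the glutamate dehydrogenase, had 35.5% ± 1.13 and 33.6% ± 2.84, URA5, of pyrimidine synthesis, 22.7% ± 7.05 and 25.1% ± 7.18, and SPT16, of the FACT histone chaperone, 21.0% ± 2.69 and 24.2% ± 4.63. CLN2, a G1 cyclin, had 4.07% ± 0.494 and 4.22% ± 1.94, MRPL39 of the mitochondrial ribosome 39.5% ± 3.08 and 44.2% ± 4.98, and SBA1, a co-chaperone of Hsp90, 48.4% ± 3.93 and 38.5% ± 10.4, its lowest value (26.6%) again in wild-type replicate 2.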

How the data were processed

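Polyadenylated RNA of 3 JHD2 deletion and 3 wild-type libraries was measured by 3′READS. Per the labels' design text, the authors used Bowtie2 (local alignment, 4 bp cut from the read start) to place reads longer than 15 bp on sacCer3, kept reads with mapping quality of at least 10, at most 5% mismatches and at least 2 unaligned T, and joined last aligned positions within 24 bp into clusters. Clusters were assigned to genes extended by up to 1000 bp and kept with at least 3 reads and 5% of gene reads. The deposited table holds raw counts per cluster with no normalization. No molecular identifiers are mentioned, so floors cover counting error only.

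Positions were taken as counted from 0, and printed as counted from 1. Read so, the base after the last aligned base was A in 0 of 3642 plus-strand and 0 of 3609 minus-strand clusters, and counting from 1 gave 93.0% and 31.8%. This order of main and alternative reverses the one first planned. Clusters with 20 or more summed reads (7252) entered edgeR 4.0.16 (R 4.3.3), with TMM scaling and quasi-likelihood tests of level and of usage within genes (diffSpliceDGE). Called means a Benjamini-Hochberg adjusted p under 0.05 over all clusters tested. limma 3.58.1 (voom) and DESeq2 1.42.0 were alternatives. The edgeR tests of level, of usage and of usage against the main cluster were tried on simulated counts, and the limma and DESeq2 alternatives were not. Shares are percentages of a gene's deposited reads, averaged over genes that had at least 20 reads a library on average.

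Members and gene lists were chosen with earlier results of these data known. Named are the called members, the 8 highest and 8 lowest of those at an unadjusted p under 0.05 with separate shares, the 12 most read, the most read of each list, the 3 genes with most members and those at the thresholds. Printed sequences are a selection from the called and the 6 most-read members. Near-identical copies elsewhere in the genome were found for 5 of 1312 members (50-nt window, at least 45 nt at 90% identity), those of CDC53, HXT7, CRP1, NOP56 and IMP1. Same-numbered libraries did not vary together (correlations of -0.11, -0.02 and -0.03), so replicate numbers were not taken as pairs.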

Additional observations from a re-analysis of the deposited data

How the results depend on the processing

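The share of members with a usage fold change above 0 stayed between 55.3% and 60.7% with each library left out and between 57.0% and 59.1% under the other settings run, including main clusters chosen by reads scaled to equal totals (58.7%, 1302 of 1318 members shared), a setting added after seeing the data. The difference in mean share stayed above 0, from 0.414 to 1.03 points with a library left out and from 0.743 to 0.969 otherwise. The mean log2 ratio to the main cluster differed by 0.0293 to 0.105 with a library left out and by -0.00837 with a pseudocount of 2, and the cause was not tested. Members called lower in usage by edgeR numbered 0, and 1 with limma-voom, with the main cluster only, and without wild-type replicate 2 (range 0 to 1 over left-out libraries). Members called higher in level by edgeR numbered 3 to 6 with a library left out, the 3 without wild-type replicate 1, and those called lower 2 to 3. Called lower in level was 1 member with DESeq2, which gave 628 members, URA3 among them, no adjusted p, and 1 with a minimum of 50 summed reads, which leaves URA3 (26 reads) out of the fit. SPI1 and PMA1 lost their level calls as given above. Apart from that log2 ratio, no comparison or fold change of a named member changed sign under the settings run.

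With the replicate block the counts were 0 and 0 for usage and 5 and 2 for level, the share of members above 0 was 58.0% and the difference in mean share 0.743 points. The numbers did not pair the libraries, so this is only a shared number. A median of 6 to 12 reads per member and library limits what can be seen at single clusters.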

Other observations

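The stretch of 3′ UTR that the upstream ends leave out was searched for TGTANATA, the word bound by the Puf3 type of Pumilio protein, in 1052 genes with both ends past the stop codon. Between the upstream and the main end stood 63 matches in 59 genes (5.61%), or 0.800 per kb, and on the other strand of the same stretch 0.825 per kb. Between the stop codon and the upstream end the density was 0.876 per kb, and 0.763 on the other strand. The word was thus as frequent on the strand whose sequence the mRNA does not carry, and in the nuclear genome it stood at 0.160 per kb. A match is a description of the sequence and says nothing of binding.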
